A study of Mus musculus with 4 samples.

Results

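The libraries labelled Isl1CKO and Pou4f1KO, the 2 single mutants among the 4 RNA-seq libraries of the series, were compared directly, without use of the control library, to list the gene programmes that separate them. All 4 libraries came from the mouse cochleovestibular ganglion (CVG) at embryonic day 11.5, 1 library each for the labels Isl1CKO, Pou4f1KO, DKO and control. The mutant names were taken to mean conditional loss of Isl1, loss of Pou4f1, and loss of the 2 genes together. Strain, sex, the Cre driver of the conditional allele, the alleles that the control carries and the number of embryos in a library are not given in the sources used here. A gene entered the comparison if it reached 1 TPM (a transcript level scaled for gene length and library total) in either single mutant library, which held for 14705 of the 25239 gene symbols in the tables.

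The CVG is the cluster of young neurons that leave the otic vesicle and later form the auditory and vestibular ganglia. ISL1, a LIM-homeodomain transcription factor, and POU4F1 (also called BRN3A), a POU-homeodomain transcription factor, are both made in newly born sensory neurons. In the dorsal root and trigeminal ganglia these factors are known to act together: they close down genes of earlier and of spinal cord type and open genes of sensory neuron subtypes. The direct comparison asks where the RNA profiles of the single mutants part, and the DKO and control levels, which did not enter the rule that called genes, are given beside each difference.

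With 1 library a side replicate spread is unknown, so every value below is a size without a replicate check, and no p-value was computed. The aligned sequence came to 13.6 gigabases in the library labelled Isl1CKO and 16.6 in Pou4f1KO, and a gene at 1 TPM was covered 4.95 and 5.77 times on average. The labelled tissue was present in both: the neuronal tubulin gene Tubb3 stood at 3017 TPM in the library labelled Isl1CKO and 2930 in Pou4f1KO, and the proneural gene Neurod1 at 814 and 858 TPM. The ganglia were dissected, not sorted, and both libraries also held RNA of blood (the embryonic globin gene Hbb-y at 2628 and 2409 TPM), glia (Sox10 at 145 and 159 TPM) and epithelium (Epcam at 51.8 and 20.2 TPM). In bulk tissue of this kind, fewer cells of a type and less RNA per cell cannot be told apart.

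The targeted genes both stood higher in the library labelled Isl1CKO. Pou4f1 (mm10 chromosome 14, 104462325 to 104467999, minus strand) was at 188 TPM there and 16.6 TPM in Pou4f1KO, with 14.6 TPM in DKO and 146 TPM in control. Isl1 (chromosome 13, 116298270 to 116309688, minus strand) was at 854 TPM in the library labelled Isl1CKO and 340 TPM in Pou4f1KO, with 579 TPM in DKO and 450 TPM in control. Differences are given as the log2 ratio of (TPM + 1), Isl1CKO over Pou4f1KO, which shrinks the differences of genes with low levels: it was 3.42 for Pou4f1 and 1.33 for Isl1. The Pou4f1 levels go with the Pou4f1KO and DKO labels. The Isl1 levels go against the Isl1CKO label and, at a DKO level above control, against the DKO label too, but a conditional deletion may remove only some exons, and a level over the whole gene does not check either label. Each direction below therefore rests on the label, and the libraries are called by it, DKO included.

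Most genes lay close together. The median log2 ratio over all 14705 genes was −0.03, the median size of a ratio was 0.14, and 90% of genes lay within 0.53 of 0. At a size of at least 1, which is 2-fold, 170 genes (1.16% of those compared) were higher in the library labelled Isl1CKO and 218 (1.48%) were lower, together 388 genes (2.64%). Just inside the threshold stood Mpzl2 at 8.07 and 3.51 TPM (1.01) and Vat1l at 44.5 and 90.4 TPM (−1.01), and just outside it Matk at 16.0 and 7.58 TPM (0.99) and S100a6 at 3.90 and 8.79 TPM, a ratio rounding to the threshold itself. The split of the called genes moved with the scaling: 43.8% of them were higher with TPM as deposited, and 61.5% when both libraries were scaled to the same pan-neuronal level, which moved the median of all genes by 0.17. The called genes were weaker than most, with a median level in the higher library of 7.36 TPM for the higher genes and 6.13 TPM for the lower ones, against 25 TPM over all genes. Of the called genes, 66 of the higher and 95 of the lower stood under 1 TPM in the lower library, so that their inclusion rested on the other library alone. Where genes are said below to reach 1 TPM in 1 library only, this refers to the single mutants and not to control or DKO.

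**Figure D1:**
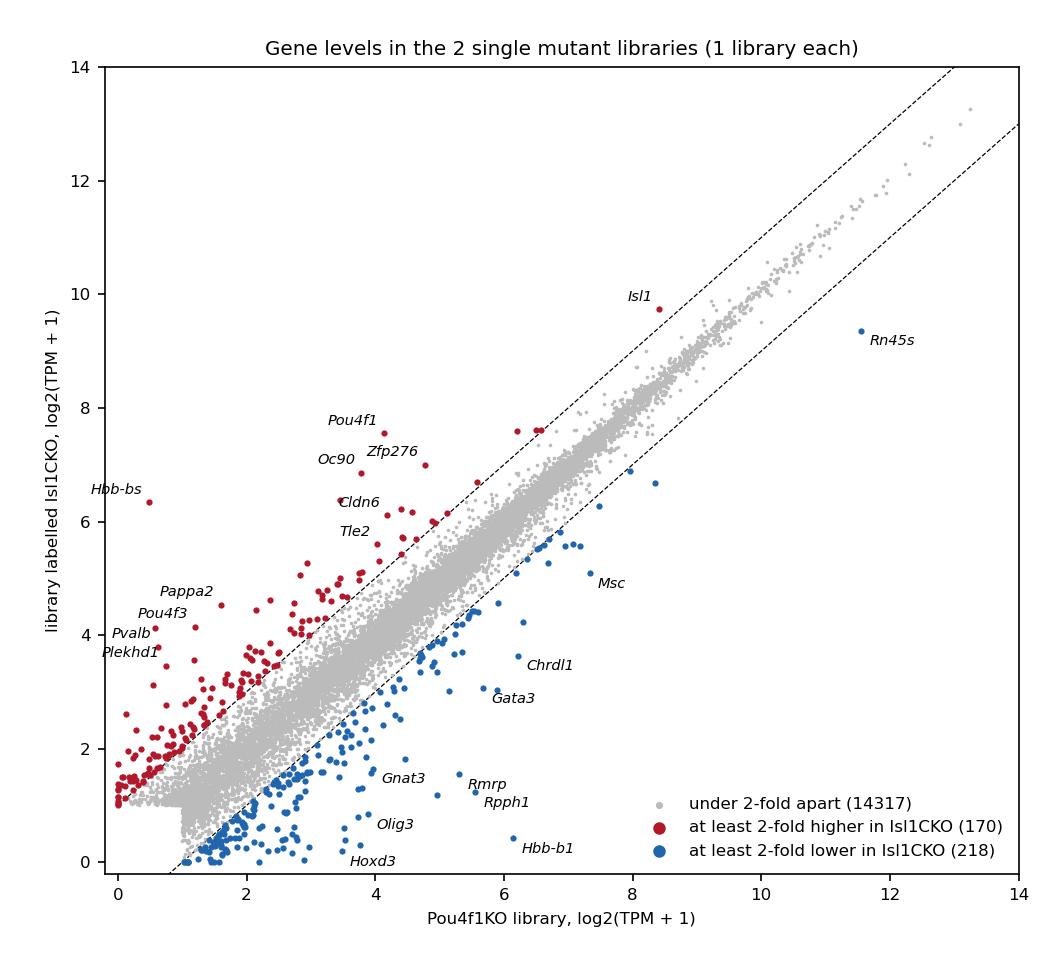
Gene levels in the Pou4f1KO library (horizontal) and in the library labelled Isl1CKO (vertical), both as log2(TPM + 1), 1 point per gene and 1 library per axis. Dashed lines mark 2-fold. The 170 genes above the upper line include Pou4f1, Oc90 and Pvalb, and the 218 below the lower line include Rn45s, Rpph1, Gata3 and Hoxd3. Hbb-bs and Hbb-b1 share their locus and lie on opposite sides.

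The DKO and control libraries placed these genes in 4 patterns. Of the 170 higher genes, 108 (63.5%) had DKO closer to Pou4f1KO and control closer to Isl1CKO, so that Pou4f1KO and DKO stood low together. For 27 higher genes (15.9%) the library labelled Isl1CKO and DKO stood high together, for 17 Pou4f1KO stood low alone, and for 18 Isl1CKO stood high alone. The 218 lower genes were distributed otherwise: for 94 (43.1%) Pou4f1KO stood high alone, for 54 (24.8%) Isl1CKO and DKO stood low together, for 49 (22.5%) Pou4f1KO and DKO stood high together, and for 21 (9.63%) Isl1CKO stood low alone. A pattern is a matter of the nearer library only: for 24 of the higher and 57 of the lower genes, DKO or control lay between 0.4 and 0.6 of the way from Pou4f1KO to Isl1CKO. Over all 14705 genes the same patterns took 24.9% (Pou4f1KO with DKO), 22.4% (Isl1CKO with DKO), 31.4% (Pou4f1KO alone) and 21.3% (Isl1CKO alone).

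**Figure D2:**
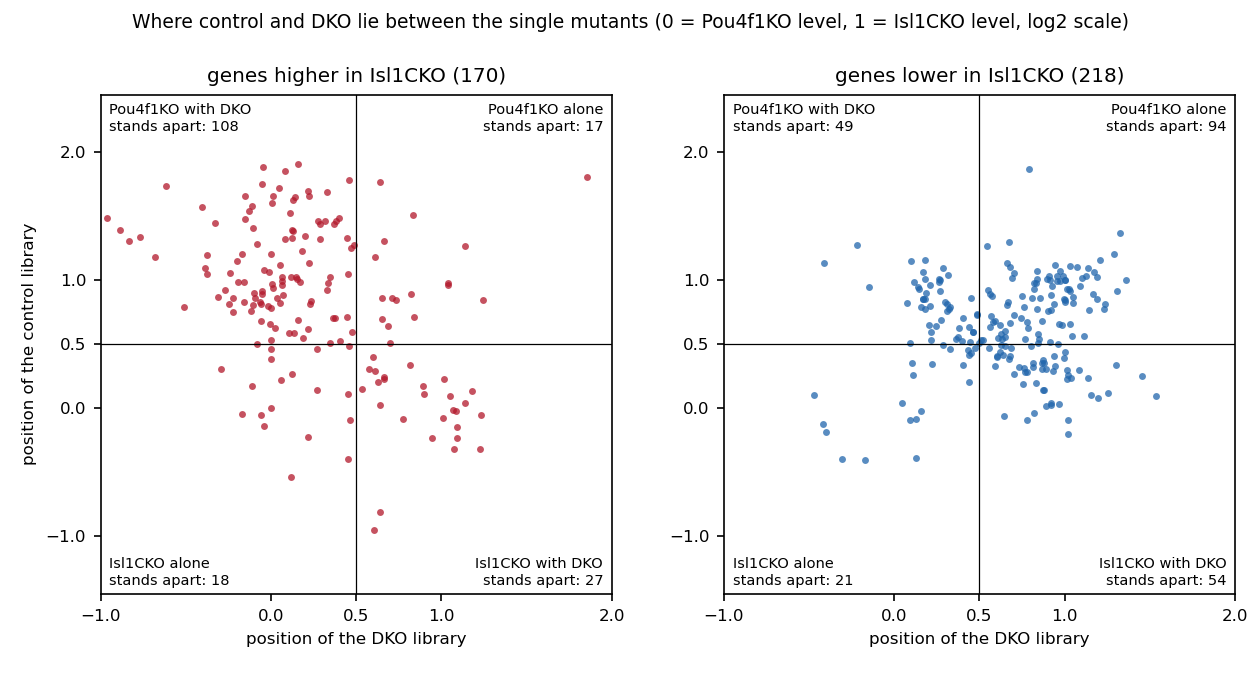
Position of the DKO library (horizontal) and of the control library (vertical) between the single mutants on the log2(TPM + 1) scale, where 0 is the Pou4f1KO level and 1 the level in the library labelled Isl1CKO, for genes higher (left) and lower (right) in the library labelled Isl1CKO. The upper left field, where Pou4f1KO and DKO stand apart from control and Isl1CKO, holds 108 of 170 higher genes, and the upper right field, where Pou4f1KO stands apart alone, holds 94 of 218 lower genes. 1 lower gene lies outside the axes.

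Among the 25 higher genes of largest ratio and at least 5 TPM, 22 had DKO nearer to Pou4f1KO and control nearer to Isl1CKO, and the transcription factor and neuronal genes among them are given first. Pou4f3 (BRN3C), the hair cell member of the same POU family, stood at 16.7 TPM in the library labelled Isl1CKO and 1.29 TPM in Pou4f1KO (log2 ratio 2.95), with 15.7 TPM in control and 1.31 TPM in DKO. Pou4f2 (BRN3B), the family member best known from retinal ganglion cells, followed at 3.93 and 0.781 TPM (1.47), so the ratios of all 3 Pou4f genes had the same sign. Pvalb, which encodes the calcium-binding protein parvalbumin of proprioceptive and vestibular neurons, was at 12.9 and 0.535 TPM (3.18), with 13.7 TPM in control and 2.30 TPM in DKO. Tmem163, a zinc transporter gene, was at 32.2 TPM in the library labelled Isl1CKO, 6.08 in Pou4f1KO, 4.92 in DKO and 21.8 in control (2.23). Levels in the library labelled Isl1CKO and in control were on one side for each of these genes, and levels in Pou4f1KO and DKO on the other.

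Other genes of this pattern encode proteins of various kinds, only some of them of the synapse, the cell surface or the extracellular space. Pappa2, a protease that cleaves an IGF-binding protein, stood at 22.2 and 2.03 TPM (2.94) in the library labelled Isl1CKO and in Pou4f1KO, with 23.3 TPM in control and 2.44 TPM in DKO. Grm2, a metabotropic glutamate receptor gene, was at 19.8 and 5.53 TPM (1.67), with 3.22 TPM in DKO. Nrn1, which encodes the neurite-promoting protein neuritin, was at 73.6 and 20.1 TPM (1.82), with 39.0 TPM in control and 18.0 TPM in DKO, so the library labelled Isl1CKO was the highest of the 4. It was also the highest for Tnfaip8l1 at 37.8 and 6.66 TPM (2.34), with 28.6 TPM in control and 4.91 TPM in DKO. For Slc39a2, a zinc importer gene, it was the highest too, at 23.6 and 4.16 TPM (2.25). The Slc39a2 levels of 12.1 TPM in control and 9.86 TPM in DKO both lay about midway between the single mutants on the log scale. Plekhd1 at 10 and 0.673 TPM (2.72), Fam160a1 at 7.71 and 0.464 TPM (2.57), the bradykinin receptor gene Bdkrb2 at 11.5 and 2.96 TPM (1.66) and the actin-bundling gene Espn at 6.30 and 1.25 TPM (1.70) had DKO values of 0.549, 0.603, 2.72 and 2.91 TPM; for Espn, with control at 8.82 TPM, DKO lay about midway between the single mutants on the log scale. Zfp276 at 127 and 26.3 TPM (2.23) overlaps Fanca and Vps9d1 on the opposite strand, and the sharing out of reads between overlapping genes was not tested.

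A long non-coding RNA beside Pou4f1, D130009I18Rik (chromosome 14, 104639144 to 104966783, plus strand), had the same profile, and was singled out after its values were seen. It stood at 16.4 TPM in the library labelled Isl1CKO, 0.490 in Pou4f1KO, 0.764 in DKO and 12.1 in control (3.54). From the lists, the vesicular glutamate transporter gene Slc17a6 (VGLUT2) stood at 51.6 and 20.6 TPM (1.28), with 51.0 TPM in control and 17.8 TPM in DKO. The BH3-only death gene Hrk was at 12 and 3.70 TPM (1.46), with 9.42 TPM in control and 3.70 TPM in DKO. In all of these genes DKO lay next to Pou4f1KO.

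Promoter letters are shown for genes of this kind because POU4-type and homeodomain proteins recognise AT-rich cores. Windows of 300 bases around RefSeq transcript starts (build GRCm38.p6, 250 before to 50 after) existed for 257 of the 388 called genes. They were searched on both strands for TAATTAAT (a POU4-type core), TAATTA (a homeodomain core contained in TAATTAAT) and CTAATG (a LIM-homeodomain core). TAATTAAT was found in 6 of 138 windows of higher genes (4.35%), in 1 of 177 windows of lower genes (0.565%) and in 61 of 14409 windows over all genes compared (0.423%). TAATTA was found in 7.97%, 4.52% and 2.58% of these windows, and CTAATG in 2.90%, 9.04% and 4.84%. Within the 98 windows of higher genes where Pou4f1KO and DKO stood low together, 3 (3.06%) held TAATTAAT: those of D130009I18Rik, Slc17a6 and Hrk. This share was below the 4.35% over all higher genes. Windows of Grxcr1, Nfix and Otx2, higher genes of other patterns, held TAATTAAT as well. The 250 bases before the start are printed 5′ to 3′ on the gene's strand for those genes and for Tmem163, with the matches in capitals. The window of Fzd5, a Wnt receptor gene, stands beside them for CTAATG, whose reverse complement it holds; Fzd5 was at 0.837 TPM in the library labelled Isl1CKO and 1.39 in DKO, against 4.96 in Pou4f1KO and 3.28 in control. CTAATG was found in 5 of 46 windows (10.9%) of lower genes where Isl1CKO and DKO stood low together. It was found in 8 of 75 (10.7%) where Pou4f1KO stood high alone, so its share did not set the pattern of Fzd5 apart. A match of letters is a description and not a binding site.
D130009I18Rik, chr14:104638894-104639143, plus strand: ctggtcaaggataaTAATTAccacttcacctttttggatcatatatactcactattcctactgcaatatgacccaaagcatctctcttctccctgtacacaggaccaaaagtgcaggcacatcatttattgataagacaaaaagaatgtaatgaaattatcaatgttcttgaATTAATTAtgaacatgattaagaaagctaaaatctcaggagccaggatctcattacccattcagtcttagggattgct
Hrk, chr5:118169514-118169763, plus strand: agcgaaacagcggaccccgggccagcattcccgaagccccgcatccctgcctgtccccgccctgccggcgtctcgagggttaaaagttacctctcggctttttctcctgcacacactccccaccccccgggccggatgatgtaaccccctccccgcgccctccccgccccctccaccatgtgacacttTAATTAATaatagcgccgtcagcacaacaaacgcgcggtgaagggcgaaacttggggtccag
Slc17a6, chr7:51624387-51624636, plus strand: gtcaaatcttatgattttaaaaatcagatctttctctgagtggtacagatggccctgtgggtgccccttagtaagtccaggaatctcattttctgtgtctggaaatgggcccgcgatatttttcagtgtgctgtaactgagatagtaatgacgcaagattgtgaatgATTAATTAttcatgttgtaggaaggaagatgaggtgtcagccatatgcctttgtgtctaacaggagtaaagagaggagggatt
Tmem163, chr1:127678022-127678271, minus strand: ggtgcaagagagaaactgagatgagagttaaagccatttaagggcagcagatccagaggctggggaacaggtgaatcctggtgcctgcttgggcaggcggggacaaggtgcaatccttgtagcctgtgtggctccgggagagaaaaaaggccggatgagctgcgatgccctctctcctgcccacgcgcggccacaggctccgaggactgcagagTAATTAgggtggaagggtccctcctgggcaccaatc
Fzd5, chr1:64737751-64738000, minus strand: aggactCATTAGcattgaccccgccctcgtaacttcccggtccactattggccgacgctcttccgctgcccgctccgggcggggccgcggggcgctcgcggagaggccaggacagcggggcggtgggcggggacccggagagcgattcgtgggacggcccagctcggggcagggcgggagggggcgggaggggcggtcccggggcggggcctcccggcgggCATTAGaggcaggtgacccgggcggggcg

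The second large block of higher genes was epithelial and otic. Of 26 epithelial junction and keratin genes compared (35 listed), 14 were at least 2-fold higher in the library labelled Isl1CKO and 0 lower, with a median log2 ratio of 1.13 against −0.03 over all genes; 4 of the 26 reached 1 TPM only in that library and 1 only in Pou4f1KO. The tight-junction gene Cldn6 stood at 68.3 and 17.1 TPM (1.93), with 115 TPM in control and 20.5 TPM in DKO. Its relative Cldn24 was at 8.33 and 1.46 TPM (1.92), and the adjacent Cldn22 had a ratio of 1.73. The keratin genes Krt8 at 22.8 and 5.66 TPM (1.84) and Krt19 at 4.13 and 0.583 TPM (1.70) and the protease gene Prss8 at 8.4 and 2.17 TPM (1.57) completed the 5 largest of the list. Summed over the list, the level was 406 TPM in the library labelled Isl1CKO and 155 TPM in Pou4f1KO, against 675 TPM in control and 155 TPM in DKO. DKO lay closer to Pou4f1KO and control closer to Isl1CKO for 13 of the 14 called genes, although the list's sum in the library labelled Isl1CKO was also below control.

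Genes of the otic vesicle wall divided. Oc90, which encodes the main otoconial matrix protein and is made by non-sensory otic epithelium, stood at 115 TPM in the library labelled Isl1CKO, 12.8 in Pou4f1KO, 35.0 in DKO and 128 in control (3.08). It was the only one of 13 otic matrix genes past 2-fold, and the list's median was 0.46. Of 30 otic epithelium factors, 6 were higher and 3 lower (median 0.12): Lmx1a, a LIM-homeodomain gene of non-sensory otic epithelium, stood at 18.1 and 6.26 TPM (1.40), and the neighbouring homeobox genes Hmx3 at 8.30 and 2.79 TPM (1.30) and Hmx2 (1.04) were higher too. Gata3, Fgf10 and Pax8 were lower, and Gata3 and Fgf10 are described with the genes low in Isl1CKO. The keratins and claudins, Oc90 and Lmx1a thus stood low together in Pou4f1KO, and what part the amount of epithelium in each dissection had in them was not tested.

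A smaller block of 27 genes stood high in the library labelled Isl1CKO and in DKO, with Pou4f1KO nearer to control. Its share of the higher genes (15.9%) was below that of the same pattern over all genes compared (22.4%). Prdm8, a histone methyltransferase-family gene of retina and neural tube, was at 20.7 TPM in the library labelled Isl1CKO and 23.9 in DKO, against 3.45 in Pou4f1KO and 3.31 in control (2.28). The Groucho-type co-repressor genes Tle6 and Tle2, which lie 59 bases apart on chromosome 10, were at 12.8 and 3.10 TPM (1.75) and at 47.6 and 15.3 TPM (1.58), and both had DKO levels near Isl1CKO, at 15.3 and 48.1 TPM. They were the only 2 past 2-fold of 6 TLE-family genes compared. Bhlhe23, a basic helix-loop-helix gene, stood at 28.9 and 9.55 TPM (1.5), with 31.9 TPM in DKO and 8.06 TPM in control.

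Lhx1, a LIM-homeodomain gene of spinal interneurons, was at 28.8 and 9.72 TPM (1.48), and its antisense neighbour Lhx1os at 26.8 and 8.52 TPM (1.54); their DKO levels of 18.9 and 17.9 TPM lay between the single mutants, with control at 3.05 and 3.01 TPM. The muscle-type genes Actc1 (cardiac alpha-actin; 191 and 73.1 TPM; 1.37), Nexn (an actin-binding protein; 23.9 and 8.06 TPM; 1.46) and Sln (sarcolipin; 5.09 and 0.0913 TPM; 2.48) belonged to the same block, with DKO levels of 206, 30.3 and 8.06 TPM. They were 3 of the 4 genes past 2-fold among 16 cartilage and muscle genes compared (median 0.10), the other being the cartilage gene Cnmd at 26.5 and 7.68 TPM (1.66).

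**Figure D3:**
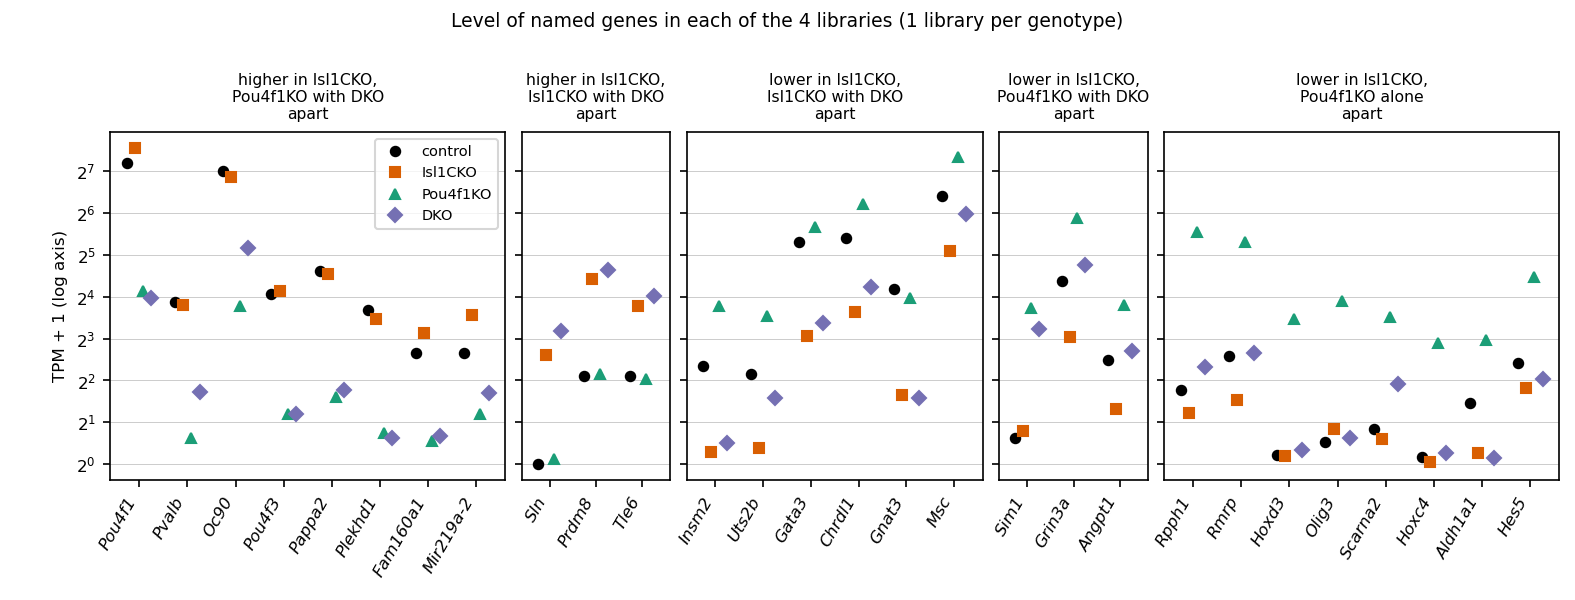
TPM + 1 (log axis, base 2) of named genes in the 4 libraries, 1 symbol per library, in panels by direction and by the libraries that stand apart; a panel shows at most 8 genes, those of largest ratio. In the first panel the symbols of control and Isl1CKO lie above those of Pou4f1KO and DKO (Pou4f3 at 15.7 and 16.7 TPM against 1.29 and 1.31), and in the last panel Pou4f1KO lies above the other 3 libraries for each gene (Hoxd3 at 10.1 TPM against 0.148 to 0.261).

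Among the lower genes, one block of 54 was low in both the library labelled Isl1CKO and DKO, with Pou4f1KO nearer to control. Its share of the lower genes (24.8%) was close to that of the same pattern over all genes compared (22.4%). Gata3 (chromosome 2, 9857078 to 9878600), a zinc-finger gene of auditory neuron development, stood at 7.39 TPM in the library labelled Isl1CKO and 9.43 in DKO, against 49.9 in Pou4f1KO and 38.5 in control (−2.60). Insm2, a zinc-finger gene of neuroendocrine cells, was at 0.228 and 12.6 TPM (−3.47), with 0.429 TPM in DKO and 4.09 TPM in control. The peptide gene Uts2b was at 0.318 and 10.6 TPM (−3.13) and Gnat3, the gene of gustducin, a G-protein subunit of taste cells, at 2.12 and 14.6 TPM (−2.32), with 2.01 TPM in DKO. In Uts2b, DKO at 1.99 TPM and control at 3.42 TPM both stood between the single mutants. On the log scale they lay 0.62 and 0.44 of the way from Pou4f1KO to Isl1CKO.

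More highly expressed members of this block included signalling genes. Chrdl1, a secreted BMP antagonist gene, stood at 11.4 and 73.4 TPM (−2.58), with 17.9 TPM in DKO and 41.5 TPM in control. Msc, which encodes the basic helix-loop-helix repressor musculin, was at 33.1 and 160 TPM (−2.24), with 62.1 TPM in DKO and 84.5 TPM in control, so that Pou4f1KO was the highest of the 4. Fgf10, a growth factor of the prosensory otocyst, was at 46.7 and 144 TPM (−1.60), with 57.5 TPM in DKO and 96.5 TPM in control, and the Wnt receptor gene Fzd5 at 0.837 and 4.96 TPM (−1.70). The kainate receptor gene Grik3 was at 7.11 and 34.6 TPM (−2.13), with 11.1 TPM in DKO and 21.2 TPM in control. The netrin receptor gene Unc5c was at 46.9 and 97.8 TPM (−1.04), with 59.1 TPM in DKO and 69.3 TPM in control, about midway between the single mutants.

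The 49 lower genes with DKO nearer to Pou4f1KO and control nearer to Isl1CKO were no larger a share (22.5%) than over all genes (24.9%). Of the 49, 6 stood in the ion channel and neuropeptide lists, which had 58 and 19 members among the 14705 genes compared. Grin3a, an NMDA receptor subunit gene, stood at 58.4 TPM in Pou4f1KO, 26.1 in DKO, 19.9 in control and 7.20 in the library labelled Isl1CKO (−2.86), so that the single mutants lay on opposite sides of control. Sim1, a basic helix-loop-helix PAS gene of ventral spinal cord and hypothalamus, was at 12.2 TPM in Pou4f1KO and 8.44 TPM in DKO, and under 1 TPM in both other libraries (−2.92). The granin gene Scg2 was at 9.92 and 28.5 TPM (−1.43), with 35.6 TPM in DKO, and the substance P gene Tac1 at 7.5 and 18.3 TPM (−1.18), with 15.6 TPM in DKO. The kainate receptor gene Grik1 at 3.27 and 12.4 TPM (−1.65) and the potassium channel gene Kcnd2 at 1.23 and 5.96 TPM (−1.64) had DKO values of 8.32 and 5.09 TPM and control values of 4.53 and 1.26 TPM. The angiopoietin gene Angpt1 was at 1.48 and 12.9 TPM (−2.49), with DKO at 5.47 TPM and control at 4.66 TPM, both about midway. Syt4, a synaptotagmin of dense-core vesicles that was chosen after its values were seen, stood at 17.8 and 77.5 TPM (−2.06), with 60.4 TPM in DKO and 22.1 TPM in control.

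Of the 94 lower genes for which Pou4f1KO stood high alone, 31 (33%) belonged to the Hox, neural tube and neural progenitor lists. The others included short RNAs, histone and globin rows and genes of no list. The Hox, dorsal, ventral and progenitor lists had 11, 26, 21 and 23 members among the 14705 genes compared, some of them shared. They were chosen with earlier results of these data known. Of 27 Hox genes listed, 11 reached 1 TPM in either single mutant, and 8 of these were at least 2-fold lower in the library labelled Isl1CKO (median of the 11, −1.73); all 8 stood apart in Pou4f1KO alone. Since 8 of the 11 reached 1 TPM only in Pou4f1KO, those members had to differ to be compared. Hoxd3 stood at 10.1 TPM in Pou4f1KO and at 0.148, 0.261 and 0.160 TPM in the library labelled Isl1CKO, DKO and control (−3.28), and Hoxc4 at 6.43 TPM against 0.0305, 0.198 and 0.120 TPM (−2.85). Hoxd4 (−2.13), Hoxb4 (−1.89) and Hoxa3 (−1.75) followed, and Hoxb3 was the most expressed of the called members, at 9.19 and 24.9 TPM (−1.35). Hox genes mark the hindbrain and spinal cord by position, and the members just named belong to paralogue groups used at the level of the caudal hindbrain. Hoxb1, also called at 0.137 and 1.68 TPM (−1.24), is not counted among them.

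Of 26 dorsal neural tube factors compared, 13 were lower and 5 higher (median −0.97), and of 21 ventral factors 11 were lower and 0 higher (median −1.09); 10 and 14 of them reached 1 TPM only in Pou4f1KO. The dorsal progenitor gene Olig3 was at 0.799 TPM in the library labelled Isl1CKO, 13.9 in Pou4f1KO, 0.542 in DKO and 0.447 in control (−3.05). The homeobox gene Msx3 was at 0.356 and 5.78 TPM (−2.32), and Atoh1, a proneural gene of hair cells and the rhombic lip, at 0.413 and 5.51 TPM (−2.20). The homeodomain gene Otp (−2.55) and the eye and ventral progenitor gene Pax6 (−2.38) had DKO and control values under 1 TPM. Dbx1 and En1, which mark spinal interneuron classes, were listed at 0 in the library labelled Isl1CKO and stood at 3.56 and 1.13 TPM in Pou4f1KO. Pou4f1KO stood apart alone for 11 of the 13 dorsal and 9 of the 11 ventral genes, and Sim1 and Nkx6-1 were the ventral genes also high in DKO.

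Neural progenitor genes followed, 6 of 23 lower and 0 higher (median −0.33), and all 6 stood apart in Pou4f1KO alone; 4 of the 23 reached 1 TPM only in Pou4f1KO, so those members had to differ to be compared. Hes5, a Notch target repressor, stood at 2.52 and 21.1 TPM (−2.65), with 3.09 TPM in DKO and 4.36 TPM in control. The POU-domain gene Pou3f2 (BRN2) was at 1.96 and 14.3 TPM (−2.37) and the cilia gene regulator Rfx4 at 0.312 and 4.85 TPM (−2.16). Robo3, the receptor of commissural axons, was at 1.43 and 12.2 TPM (−2.44), with 1.0 TPM in DKO, and Aldh1a1, a retinoic acid-synthesising enzyme, at 0.200 and 6.88 TPM (−2.72), with 0.104 TPM in DKO. The Notch list as a whole had 1 of 24 genes past 2-fold, Hes5 itself.

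Short structural RNAs stood apart in the same library as the Hox and neural tube genes. The RNase P RNA Rpph1 stood at 45.9 TPM in Pou4f1KO and at 1.34, 3.99 and 2.40 TPM in the library labelled Isl1CKO, DKO and control (−4.32). The RNase MRP RNA Rmrp was at 38.5 TPM there and between 1.92 and 5.35 TPM in the other 3 libraries (−3.76), and Scarna2 was at 10.4 and 0.514 TPM (−2.92). Rn45s, the ribosomal RNA precursor, was at 3003 TPM in Pou4f1KO against 655, 844 and 674 TPM in the library labelled Isl1CKO, DKO and control (−2.19). These were 4 of 12 such RNAs compared, each lower, with a list median of −0.75, and 5 of the 12 reached 1 TPM only in Pou4f1KO. Lars2, a mitochondrial leucyl-tRNA synthetase gene chosen after its values were seen, was at 102 and 324 TPM (−1.66). Whether RNA composition and the Hox and neural tube levels of Pou4f1KO have a common source was not tested.

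General neuronal genes separated the single mutants little. None of 30 pan-neuronal genes was past 2-fold, and the largest differences were Dcx, a microtubule protein gene of young neurons, at 355 and 506 TPM (−0.51), Syt1 at 20.6 and 28.5 TPM (−0.45) and Map2 at 152 and 208 TPM (−0.45); the list's median was −0.18. Of 38 otic neurogenesis factors, 5 were higher (Isl1, Pou4f1, Pou4f2, Pou4f3 and Lmx1a) and 1 lower (Gata3), with a median of 0.07. Of 21 neurotrophic genes, Gdnf alone passed, at 1.97 and 6.68 TPM (−1.37), and the neurotrophin receptor gene Ntrk3 stood at 8.87 and 14.7 TPM (−0.67) with 7.07 TPM in DKO. Somatosensory ganglion genes, known from the dorsal root and trigeminal ganglia, had 3 of 15 higher and 0 lower (median 0.21). The 3 were Pvalb, Pou4f2 and Avil (advillin), the last at 4.19 and 0.970 TPM (1.40). Between the single mutants, each reached 1 TPM only in the library labelled Isl1CKO, and control stood at 13.7, 2.99 and 3.26 TPM.

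Genes of neuronal signalling leaned lower in the library labelled Isl1CKO. Of 58 ion channel and transmitter genes, 8 were lower and 2 higher (median −0.41): besides Grin3a, Grik3, Grik1 and Kcnd2 the lower ones were the glycine receptor genes Glra1 (−1.58) and Glra2 (−1.28) and the GABA-synthesising enzyme genes Gad1 (−1.10) and Gad2 (−1.19), which stood at 1.88 and 1.37 TPM in Pou4f1KO and under 1 TPM in the library labelled Isl1CKO. The higher ones were Slc17a6 and the potassium channel gene Kcna1 at 7.44 and 2.73 TPM (1.18). Of the 58, 4 reached 1 TPM only in Pou4f1KO and 0 only in the library labelled Isl1CKO. Glra1, Gad1 and Gad2 were among these 4, which had to differ to be compared. Of 19 neuropeptide and dense-core vesicle genes, 3 were lower (Scg2, Tac1 and Nxph1) and 1 higher, Adcyap1 (PACAP) at 6.98 and 2.68 TPM (1.11). Of the 19, 2 reached 1 TPM only in Pou4f1KO, among them Nxph1, listed at 0 in the library labelled Isl1CKO. Of 48 axon guidance genes, Robo3, Sema3c (20.3 and 44.2 TPM; −1.08) and Unc5c were lower and Sema3a (10.2 and 4.53 TPM; 1.01) higher (median −0.34).

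**Figure D4:**
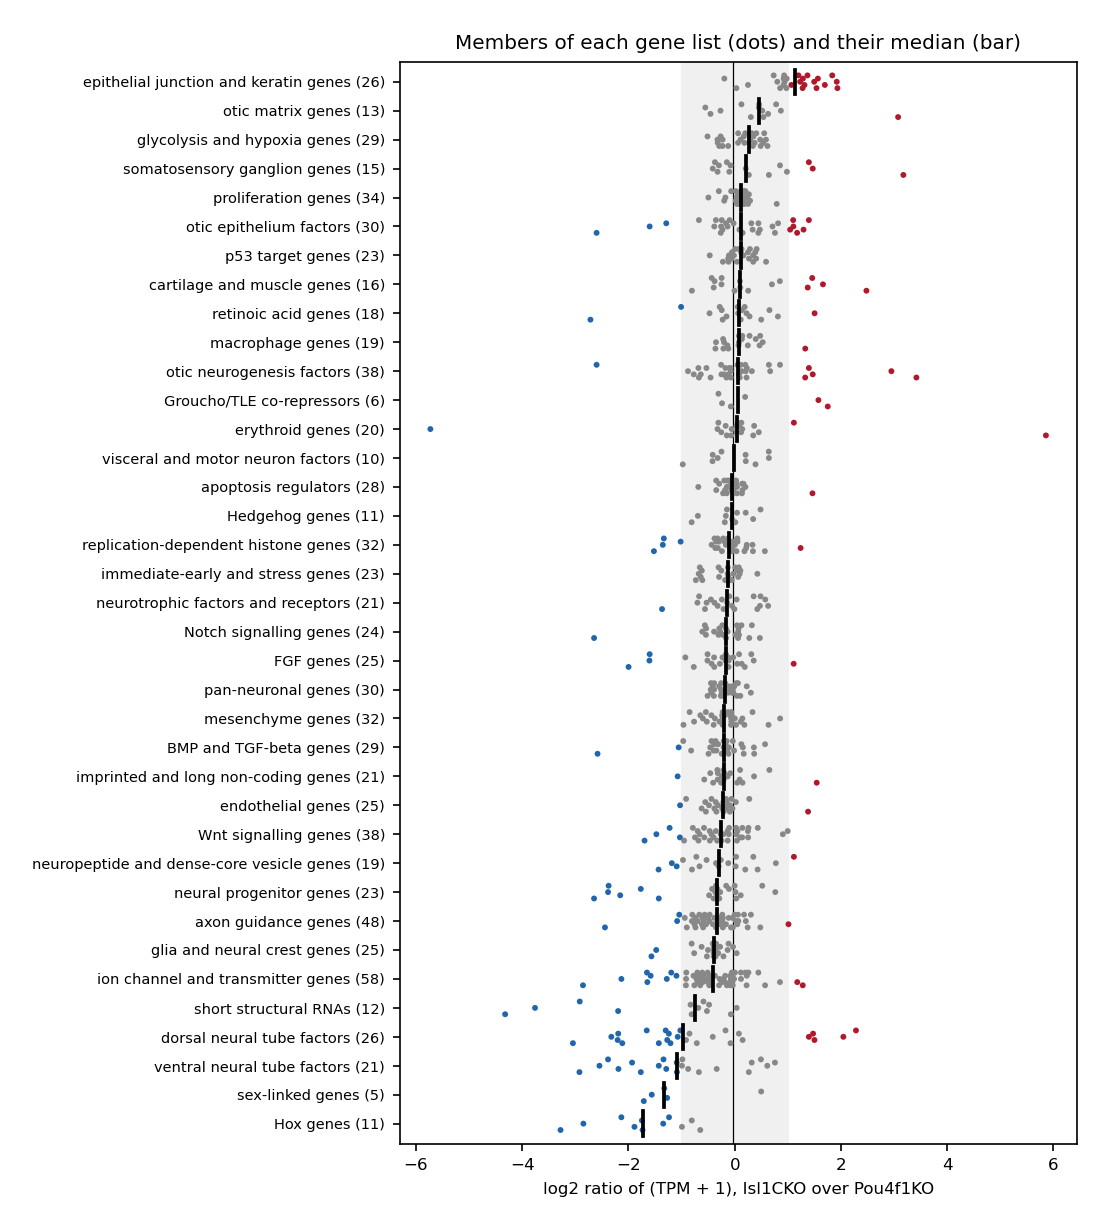
Log2 ratio of (TPM + 1), library labelled Isl1CKO over Pou4f1KO, for each compared member of each list (dots; red and blue past 2-fold), with the list's median (bar); the shaded band is under 2-fold and the line at −0.03 is the median of all genes. Epithelial junction and keratin genes have the highest list median drawn (1.13), and Hox genes the lowest (−1.73).

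Of all genes compared, 2.64% were past 2-fold, and most signalling lists held a larger share, on small counts. In the Wnt list 4 of 38 were lower (Fzd5, Wnt3a, Wnt7a and Dkk3) and 0 higher, with a median of −0.25. Of the 38, 4 reached 1 TPM only in Pou4f1KO, Fzd5 among them, and 1 only in the library labelled Isl1CKO. In the FGF list Fgf15 (2.61 and 13.4 TPM; −2.0), Fgfr3 (2.01 and 8.16 TPM; −1.61) and Fgf10 were lower and Fgf20 (1.98 and 0.382 TPM; 1.11) higher, of 25. Chrdl1 and the BMP target Id4 (55.6 and 117 TPM; −1.06) were the 2 lower of 29 BMP and TGF-beta genes, and 0 of 11 Hedgehog genes passed. In the retinoic acid list Aldh1a1 and the binding protein gene Crabp1 (50.6 and 103 TPM; −1.01) were lower, while the degrading enzyme gene Cyp26c1 was at 7.95 and 2.16 TPM (1.5), with 20.8 TPM in DKO and 19.7 TPM in control.

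Cell state lists gave few or no calls. None of 34 proliferation genes, 23 p53 targets, 29 glycolysis and hypoxia genes or 23 immediate-early genes was past 2-fold, and Hrk was the only one of 28 apoptosis regulators. Their medians were 0.12, 0.12, 0.27, −0.13 and −0.04, and the last 2 became 0.04 and 0.13 with the pan-neuronal scaling. Of 32 replication-dependent histone genes 4 were lower and 1 higher, and 6 of the 32 reached 1 TPM only in Pou4f1KO. The higher one, H2ac18, overlaps H2ac19, and the sum of both had a ratio of −0.20. Of 21 imprinted and long non-coding genes Lhx1os was higher and the imprinted gene Peg10 lower, at 118 and 249 TPM (−1.07). The cyclin gene Ccnd1, at 511 and 295 TPM (0.79), and the lactate dehydrogenase gene Ldha, at 896 and 609 TPM (0.56), were among the larger ratios of the proliferation and glycolysis lists.

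Markers of other tissues in the dissection were compared as well. None of 32 mesenchyme genes passed (median −0.20), the largest ratio being Col1a2 at 35.7 and 70.5 TPM (−0.96), and none of 10 visceral and motor neuron factors did (median −0.02, or 0.11 with the pan-neuronal scaling). Of 25 endothelial genes Esm1 (1.38) was higher and Aplnr (−1.03) lower, and of 19 macrophage genes Trem2 (1.33) was higher. Of 25 glia and neural crest genes Tfap2b (2.01 and 7.91 TPM; −1.57) and Cdh6 (47.4 and 134 TPM; −1.48) were lower, with a median of −0.39. The 20 erythroid genes had a median of 0.04, or −0.06 when haemoglobin, ribosomal protein, mitochondrial and short RNA genes were left out of the scaling. Their largest ratios came from rows that share a locus: Hbb-bs was at 79.9 and 0.392 TPM and Hbb-b1 at 0.338 and 70.0 TPM, and the sum of both had a ratio of 0.19.

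Sex-linked genes differed between the libraries. The Y-linked genes Kdm5d, Eif2s3y, Uty and Ddx3y were at 4.34, 11.6, 3.62 and 7.08 TPM in the library labelled Isl1CKO and at 16.5, 36.3, 10.6 and 18.5 TPM in Pou4f1KO, with log2 ratios from −1.71 to −1.27. Control and DKO lay near the Pou4f1KO levels, and Xist, expressed from the inactive X chromosome, was at 195 and 138 TPM (0.50). Y-linked and X-inactivation RNA thus occurred in both libraries, in unequal amounts, and what part the sex of the embryos had in other genes was not tested.

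Lists named a minority of the called genes: 50 of the 170 higher and 79 of the 218 lower stood in any list, of which 33 and 41 were in lists of other tissues and 11 and 16 in neuronal lists. Protein-coding genes made up 74.7% of the higher and 78.4% of the lower genes, against 90.9% over all genes compared, and rows spanning under 300 bases 17.1% and 6.88% against 2.54%. Called genes next to each other on a chromosome with the same direction made 9 pairs among the higher and 17 among the lower genes, among them Krt8 with Krt18, Cldn24 with Cldn22, Hmx3 with Hmx2, Gata3 with 4930412O13Rik and neighbours in the Hox clusters.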

How the data were processed

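Total RNA of dissected, frozen CVG was made into directional libraries, per the labels' protocols. Trimmomatic, FastQC, HISAT2, SAMtools and StringTie with the genome build mm10 stand in the submitters' processing notes, without versions or settings; the gene annotation used was not stated in them. The deposited tables hold TPM per gene, which the authors scaled to the same total in each library, and FPKM, which the authors computed as fragments scaled for gene length and depth. Coverage, the mean read depth over a gene's bases, is given per the file headers without scaling between libraries. No read counts were used, since the tables hold none, and coverage divided by FPKM gave the depth.

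Rows of 1 symbol were summed (260 symbols), a pseudocount of 1 TPM was added, and the log2 ratio of the libraries labelled Isl1CKO and Pou4f1KO was taken for genes at 1 TPM or more in either. Called genes had a ratio of at least 1 in size. Named genes were Isl1 and Pou4f1, the 25 largest ratios in each direction among ordinary symbols on 1 row at 5 TPM or more, whose sum with overlapping same-strand rows did not bring the ratio under 2-fold, and up to 5 per list; others are said to be chosen after their values were seen, or are given as neighbours or marker checks, and 1 named gene is not reported here. The genes compared and the lists were chosen with earlier results of these data known. Of 25239 symbols, 24366 (96.5%) matched GENCODE M21. Promoters came from RefSeq (GRCm38.p6). Other pseudocounts, minima, fold thresholds, scalings and FPKM were tried. The calculation, in Python 3.11.15 with pandas 2.3.3 and numpy 2.4.6, was tested on simulated data.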

Additional observations from a re-analysis of the deposited data

How the results depend on the processing

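The counts of called genes depended on the scale. Gene values were recomputed for Isl1, Pou4f1, the 25 largest ratios in each direction and up to 5 genes per list. No called gene among these reversed, and the other genes named in the text were not recomputed. With a pseudocount of 0.1 TPM, 336 genes were higher and 413 lower, and with 5 TPM, 49 and 60. FPKM gave 84 and 89, a minimum of 5 TPM gave 101 and 128, and a 4-fold threshold gave 19 and 35. The pan-neuronal scaling gave 233 higher and 146 lower. With a pseudocount of 0.1 TPM, DKO lay closer to Isl1CKO for 36% of higher and 57.6% of lower genes, against 25.9% and 67.9%. Lists with a median at least 2-fold from 0 numbered 5, and 1 with a pseudocount of 5 TPM. Of 1719 recomputed values of named genes, 1563 stayed within 1.5-fold, 156 moved further and 0 reversed. A reversal was counted only for genes past 2-fold. Another pseudocount cannot change the sign of a ratio. Another minimum, or keeping rows apart for a gene on 1 row, leaves the ratio as it was, and such values count among the 1563. Only FPKM and the other scalings could have reversed a value. Small list medians changed sign: with the pan-neuronal scaling those of the neurotrophic (0.04), visceral and motor neuron (0.11), Notch (0.01), FGF (0.01), Hedgehog (0.13), apoptosis (0.13), immediate-early (0.04) and histone (0.05) lists, and with a minimum of 5 TPM those of the otic neurogenesis (−0.08), somatosensory (−0.10), otic epithelium (−0.02) and histone (0.12) lists. FPKM changed the visceral and motor neuron (0.02), apoptosis (0.02) and histone (0.05) lists, and the scaling without haemoglobin, ribosomal protein, mitochondrial and short RNA genes the erythroid list (−0.06). With a pseudocount of 5 TPM, Atoh1, Cldn22, Clec18a, Espn, Sln and Steap1 were among the named genes that came under 2-fold. Leaving out overlapping rows that sum to under 2-fold, an alternative chosen after seeing the data, gave 139 and 195, and leaving out rows spanning under 300 bases, likewise, gave 141 and 203.

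The limits are depth and replication. Mean coverage at 1 TPM was 4.95 and 5.77 in the single mutants, so levels well under 1 TPM rest on few reads, and without read counts no interval was computed. No paired analysis was possible because each genotype has 1 library, and leaving out a library was not possible either.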

Other observations

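Several genes outside the lists, chosen after their values were seen, stood high in the library labelled Isl1CKO and in DKO. The ankyrin repeat gene Ankrd24 was at 102 and 98.2 TPM in them, against 46.9 TPM in Pou4f1KO and 39.0 TPM in control. Art5, an ADP-ribosyltransferase gene, was at 25.1 and 27.7 TPM against 8.05 and 6.09 TPM, and Serpinb8, a protease inhibitor gene, at 24.7 and 25.7 TPM against 10.2 and 11.1 TPM. The nuclear factor I gene Nfix was at 3.63 and 3.73 TPM against 0.524 and 0.969 TPM.

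Others stood low in that pair. The integrin gene Itgb8 was at 2.47 TPM in the library labelled Isl1CKO and 2.41 TPM in DKO, against 8.75 TPM in Pou4f1KO and 6.18 TPM in control, and the opioid receptor gene Oprm1 at 0.565 and 0.539 TPM against 3.75 and 2.69 TPM. In contrast, the synaptic organiser genes C1ql3 and Cbln2 were high in Pou4f1KO and DKO: C1ql3 was at 123 and 105 TPM, against 46.6 TPM in the library labelled Isl1CKO, and Cbln2 at 10.8 and 9.83 TPM, against 3.95 TPM.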
